A study of Mus musculus with 33 samples.

Results

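H3K4me3 domains of mouse embryonic stem cells (mESC) with and without Uhrf1 were compared. The members are all domains in the list of the WT mESC H3K4me3 library and in the list of the Uhrf1 KO mESC H3K4me3 library. The WT list holds 15272 domains and the KO list 11509, together 26781 of the 318036 regions in all lists of the series. The series of 33 samples measured histone marks and pluripotency factors by ChIP-seq, in which chromatin recovered with an antibody is sequenced, in mESC and in embryoid bodies (EBs), aggregates in which the cells differentiate. Both libraries were made from E14 mESC kept in LIF medium on gelatin or on feeder fibroblasts. One genotype is wild type (WT) and the other lacks Uhrf1 (KO). Both lines were obtained from another group, and the KO is 1 line. Each genotype has 1 library for this mark, so differences between lists were not set against a spread between replicates and no p-value is given. Ranges in parentheses after a share (Wilson) or a difference of shares (Newcombe) are 95% intervals, which cover only the counting error over domains or promoters.

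H3K4me3 is deposited by the COMPASS and MLL methyltransferases and marks the starts of active genes and most CpG islands. In mESC many promoters of developmental regulators carry it together with H3K27me3, the mark of Polycomb repressive complex 2, a state called bivalent. Uhrf1 binds hemimethylated DNA and recruits the maintenance DNA methyltransferase Dnmt1.

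A WT domain was called lost when it shared no bp with a KO domain and kept otherwise, and a KO domain was called gained when it shared no bp with a WT domain and shared otherwise. A promoter was the window 2000 bp either side of the start of a protein-coding gene (mm9). It was called lost when a WT domain but no KO domain touched the window, and gained in the opposite case. The sequences of 7 such promoters, chosen by the signal of their domains and not by CpG content, are shown. They were taken from the mm9 genome (NCBIM37) as the 200 bases upstream of the start, 5′ to 3′ on the strand of the gene, with each CpG in capitals. Fam13a (chr6:58974544-58974743, minus strand) and Zfp930 (chr8:71750042-71750241, plus strand) had the strongest WT domains among lost promoters. Rprm (chr2:53937964-53938163, minus strand) and Olfr368 (chr2:37187069-37187268, plus strand) had the strongest KO domains among gained ones. Dazl (chr17:50432925-50433124, minus strand) and Smc1b (chr15:84962388-84962587, minus strand) led the lost and gained germline genes, and Nr0b1 (chrX:83436903-83437102, plus strand) led the lost pluripotency genes.
Fam13a (lost): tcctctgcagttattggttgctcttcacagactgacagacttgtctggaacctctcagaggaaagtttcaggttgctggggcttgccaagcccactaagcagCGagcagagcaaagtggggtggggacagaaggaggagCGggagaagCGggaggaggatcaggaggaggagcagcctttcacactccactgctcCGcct
Zfp930 (lost): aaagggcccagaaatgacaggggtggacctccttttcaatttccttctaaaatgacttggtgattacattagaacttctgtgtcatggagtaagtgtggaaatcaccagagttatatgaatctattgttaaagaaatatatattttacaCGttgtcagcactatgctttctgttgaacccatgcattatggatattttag
Rprm (gained): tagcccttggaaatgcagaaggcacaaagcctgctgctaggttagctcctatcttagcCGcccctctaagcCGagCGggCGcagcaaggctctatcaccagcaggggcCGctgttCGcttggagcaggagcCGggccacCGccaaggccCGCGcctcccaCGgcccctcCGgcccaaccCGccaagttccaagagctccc
Olfr368 (gained): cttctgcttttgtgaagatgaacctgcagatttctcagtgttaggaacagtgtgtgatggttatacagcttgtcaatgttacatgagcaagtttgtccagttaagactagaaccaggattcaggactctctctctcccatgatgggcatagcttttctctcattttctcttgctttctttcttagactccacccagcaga
Dazl (lost): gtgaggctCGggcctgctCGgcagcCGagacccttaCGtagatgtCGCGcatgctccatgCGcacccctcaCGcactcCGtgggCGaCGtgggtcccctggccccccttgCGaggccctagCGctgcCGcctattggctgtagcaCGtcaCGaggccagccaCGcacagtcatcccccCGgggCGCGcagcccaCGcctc
Smc1b (gained): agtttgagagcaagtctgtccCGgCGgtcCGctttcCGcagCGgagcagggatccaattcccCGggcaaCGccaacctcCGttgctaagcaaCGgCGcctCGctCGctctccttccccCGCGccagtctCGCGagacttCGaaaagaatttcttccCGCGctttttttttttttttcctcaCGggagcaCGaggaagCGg
Nr0b1 (lost): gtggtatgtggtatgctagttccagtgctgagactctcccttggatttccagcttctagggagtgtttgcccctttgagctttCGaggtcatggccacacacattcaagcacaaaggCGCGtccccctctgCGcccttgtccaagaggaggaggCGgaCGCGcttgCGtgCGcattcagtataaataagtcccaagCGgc
The lost promoters above held 4 (Fam13a), 1 (Zfp930), 21 (Dazl) and 10 (Nr0b1) CpGs in these 200 bases, and the gained ones 13 (Rprm), 0 (Olfr368) and 22 (Smc1b). Over all coding genes the median was 13 CpGs at kept, 8 at lost, 4 at gained and 2 at unmarked promoters.

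The mESC label was checked against its markers. Of 8 pluripotency markers, 7 had an H3K4me3 promoter in both lists (Pou5f1, Sox2, Nanog, Zfp42, Klf4, Tdgf1 and Dppa5a). The annotated start of Esrrb was marked in neither list. Of 9 fibroblast markers, 4 were marked in both lists (Col1a1, Col1a2, Thy1 and Prrx1), Twist2 was marked only in WT, and Col3a1, Dcn, Lum and Postn were marked in neither. In a longer list of 24 fibroblast genes 13 were marked in WT and 11 were unmarked. Of the 13, 8 were kept and 5 lost (38.5%, 17.7 to 64.5), among them Col5a1, Tagln, Tgfbi and Col6a2. Of all coding promoters marked in WT 12% were lost. A domain does not tell feeder cells from mESC, and the part of feeder chromatin in these lists was not tested. Uhrf1 itself kept its promoter domain, which was 76.7 kb long in WT and 16.9 kb in KO. This domain does not check the deletion. The number of reads in each library was not used here.

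One chromosome stood apart. On chromosome 8, 393 of 889 WT domains were lost (44.2%, 41.0 to 47.5), against 22.5% (X) to 31.4% (chromosome 11) on the other chromosomes, Y left out. The excess lay in distal domains, of which 74.4% were lost on chromosome 8 and 41.4 to 58.6% elsewhere. At promoter domains the chromosome 8 share was 15.6% and the others ran from 8.92 to 15.9%. Gained domains made 1.94% of KO domains on chromosome 8 and 3.96 to 9.07% elsewhere. In 5 equal segments of the chromosome the lost share ran from 38.3 to 49.3%. Chromosome 8 held 9.63% of the Sox2 summits in WT and 5.13% in KO, 9.62 and 5.84% of the Nanog summits, and 6.26 and 21.9% of the Oct4 summits. It held 4.36 and 4.29% of the H3K27me3 domains and 2.55 and 5.84% of the H3K9me3 domains. DNA copy number was not measured here. Without chromosome 8, 26.0% of WT domains were lost, 6.11% of KO domains were gained and 11.8% of marked promoters were lost.

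To find where H3K4me3 differed, domains were first compared by overlap. Of the WT domains, 4127 were lost (27.02%, 26.3 to 27.7) and 11145 were kept. Of the KO domains, 679 were gained (5.90%, 5.48 to 6.35) and 10830 were shared. Lost domains covered 23.8 Mb, 10.99% of the bp covered in WT, and gained domains 3.61 Mb, 1.91% of the bp covered in KO. The lists differ in length. When the WT list was shortened to the number of KO domains by signal, highest first, 19.3% of WT domains were lost and 20.3% of KO domains were gained, 2 shares that lists of equal number hold close together by construction. Keeping only the stronger 50% of each list gave 43.4% lost and 24.6% gained. The signal is the mean read count per bin of 1300 bp. It is not stated whether it was scaled to depth, so it was used as a rank within each list, from 0 (weakest) to 100.

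Lost and gained domains were short. The median length was 3.9 kb for lost domains (quartiles 2.6 and 7.8) and 11.7 kb for kept domains (6.5 and 20.8). It was 3.9 kb for gained domains (2.6 and 6.5) and 11.7 kb for shared domains (6.5 and 19.5). Of domains of 1 bin 83.2% were lost, and of domains of more than 16 bins 2.52%. For gained domains these shares were 42.4% and 0.240%. The share declined at each step of length between these groups in both genotypes. When at least 50% of a domain had to be covered, the gained share was 13.8%, and the log2 ratio of median length of gained over shared domains was −0.19 in place of −1.58.

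**Figure D1:**
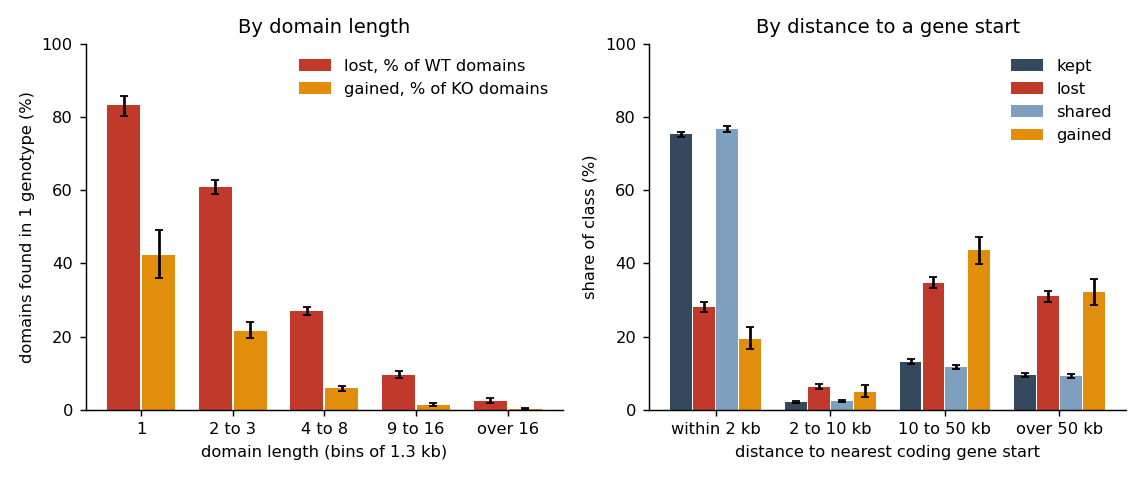
Left, percentage of WT domains lost and of KO domains gained (y axis) by domain length in bins of 1300 bp (x axis). Right, percentage of the lost, kept, gained and shared domains (y axis) in each group of distance to the nearest coding gene start (x axis); bars are Wilson 95% intervals. The lost share is 83.2% at 1 bin and 2.52% above 16 bins.

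Lost and gained domains were also weak within their lists. The median signal rank was 26.9 for lost and 58.9 for kept domains, and 32.1 for gained and 51.1 for shared domains. In the weakest of 10 equal groups of WT signal 58.0% of domains were lost, and in the strongest 4.26%. In KO the gained share was 10.2% in the weakest group and 3.22% in the strongest. Strong promoter domains were nearly all kept: in the strongest group 5 of 1181 promoter domains were lost (0.423%), against 17.3% of distal domains.

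**Figure D2:**
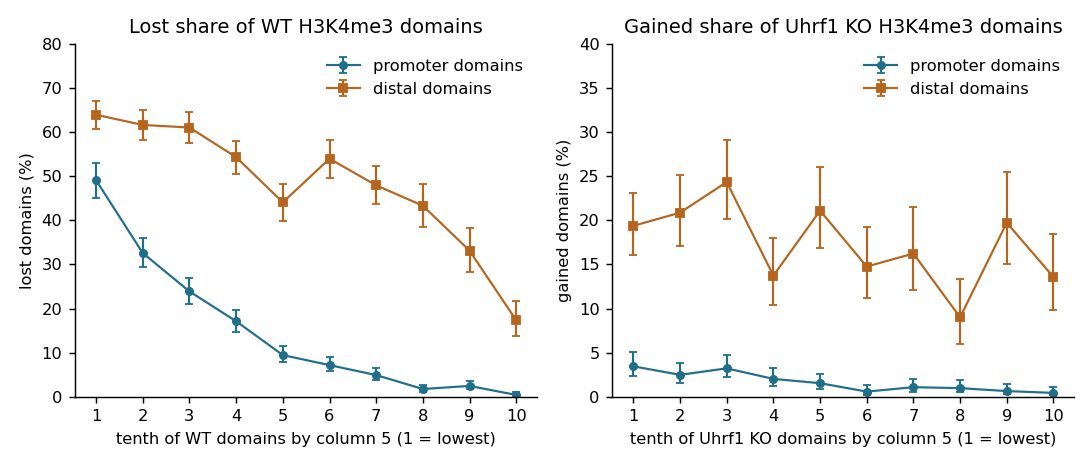
Percentage of WT domains lost (left) and of KO domains gained (right) in 10 equal groups of the signal of their own list, weakest first (x axis), for domains within 2 kb of a coding gene start and for distal domains; bars are Wilson 95% intervals. Distal domains lie above promoter domains in the strongest group of WT, at 17.3% and 0.423%.

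Position relative to genes separated the classes. Of lost domains 28.0% lay within 2 kb of a coding gene start, against 75.3% of kept domains. Of gained domains 19.4% did, against 76.7% of shared domains. A distal WT domain was lost more often than a promoter domain by 39.7 percentage points (38.3 to 41.2), and by 33.0 points within 5 equal groups of signal. A distal KO domain was gained more often than a promoter domain by 16.3 points (14.9 to 17.7). Beyond 2 kb the lost share varied little with distance: 50.9% were lost at 2 to 10 kb, 49.5% at 10 to 50 kb and 55.0% beyond 50 kb. Distal domains touched the body of a coding gene at like shares in all classes, 47.0% for lost, 47.7% for kept, 51.4% for gained and 46.5% for shared domains. Lost distal domains lay near the start of a noncoding gene or pseudogene less often than kept ones, at 7.21% and 15.3%.

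Domains present in both genotypes were compared for extent. They formed 10357 loci, of which 9332 held 1 domain of each genotype. Of these loci 46.5% were shorter in KO, 12.4% equal and 41.1% longer. The median log2 ratio of KO over WT length was 0, with quartiles of −0.46 and 0.38. Within these loci 43.0 Mb were covered in WT alone, which is 64.4% of all bp covered in WT alone, the rest being lost domains. In KO 35.5 Mb (90.8%) of the bp covered in KO alone lay within shared loci.

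At the level of genes, 14130 of 22367 coding promoters were marked in WT and 12740 in KO. Of those marked in WT, 1699 were lost, which is 12%, and of the 8237 unmarked in WT, 309 were gained, which is 3.75%. These shares are the background for each gene group described next. With lists of equal number, 6.90% of promoters marked in WT were lost and 16.2% of those unmarked in WT were gained. The gained share was then the larger, so the excess of lost over gained promoters did not hold at equal list length. With the stronger 50% of each list the shares were 34.2% lost and 8.30% gained. At 1247 lost promoters (73.4%) the whole WT domain was lost, and at 452 a WT domain in the window was kept by an overlap outside the window. At 139 gained promoters (45.0%) the KO domain was gained, and at 170 a KO domain in the window was shared by an overlap outside the window. Whether such domains differed at an end or by a gap inside was not examined.

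CpG content and H3K27me3 divided the promoters further. The ratio of observed to expected CpGs was taken 500 bp either side of the start, and promoters were called CpG-rich at 0.6 or more and CpG-poor at 0.4 or less. Of promoters marked in WT, 7.04% of CpG-rich, 19.15% of intermediate and 28.0% of CpG-poor ones were lost, a difference of 21.0 points between poor and rich (18.9 to 23.1). Of promoters unmarked in WT, 13.2% of CpG-rich (61 of 463) and 2.67% of CpG-poor ones were gained. H3K27me3 in WT touched 58.6% of lost promoters (995), 21.4% of kept, 38.5% of gained and 43.0% of unmarked ones. The lost share was 27.2% with WT H3K27me3 (995 of 3656) and 6.72% without (704 of 10474), a difference of 20.5 points (18.99 to 22.03). The difference was 14.3 points within 5 equal groups of signal (12.67 to 15.96). It was seen in each CpG class, at 21.3% with and 2.58% without the mark for CpG-rich promoters, 36.4 and 11.2% for intermediate ones, and 39.3 and 23.5% for CpG-poor ones. The H3K27me3 list of WT covers 960 Mb and that of KO 84.1 Mb, so the KO list was not used to ask whether the mark stayed.

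**Figure D3:**
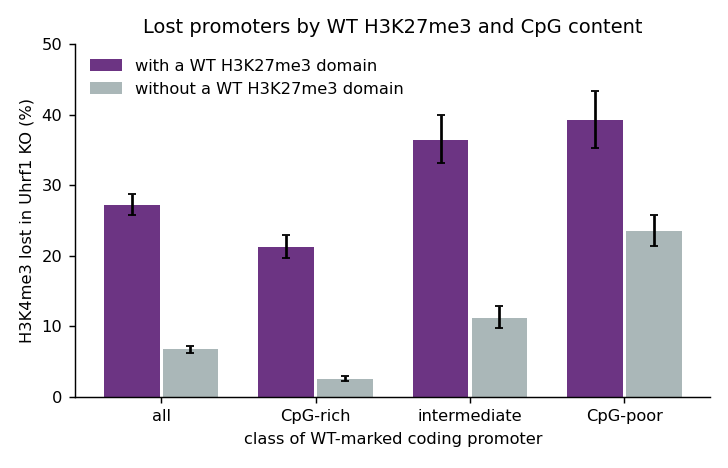
Percentage of WT-marked coding promoters that lost their H3K4me3 domain in KO (y axis) by CpG class (x axis), with and without a WT H3K27me3 domain in the window; bars are Wilson 95% intervals. Among CpG-rich promoters 21.3% were lost with the mark and 2.58% without it.

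H3K9me3, a mark of heterochromatin, and Uhrf1 windows were set beside the classes in the same way. The lost share of promoters was 4.62 points higher with WT H3K9me3 than without (3.13 to 6.20). Of the 93 WT-marked promoters in a 10 kb Uhrf1 window 33 were lost (35.5%), against 11.9% of the others, a difference of 23.6 points (14.6 to 33.8). By CpG class the difference for H3K9me3 was 1.22 points in CpG-rich promoters (−0.14 to 2.75), 4.92 in intermediate (0.92 to 9.28) and 8.91 in CpG-poor ones (4.17 to 13.8). For Uhrf1 windows it was 6.32 points in CpG-rich (−0.78 to 19.2), 12.2 in intermediate (−4.98 to 36.6) and 41.4 in CpG-poor promoters (23.99 to 54.9), of which 22 of 32 were lost. Over all domains, WT H3K9me3 touched 36.6% of lost and 26.3% of kept ones, and Uhrf1 windows 4.39% and 2.44%. Counted by domain the gap was seen at distal domains, with H3K9me3 at 40.6% of lost and 28.8% of kept and Uhrf1 at 5.25 and 3.59%. At promoter domains H3K9me3 stood at 26.2 and 25.4% and Uhrf1 at 2.16 and 2.06%. These shares count domains, which differ in length, whereas those above count promoter windows of 1 size. Within groups of like length the difference over all domains was 13.7 points for H3K9me3 (11.7 to 15.7) and 2.48 for Uhrf1 (1.69 to 3.26). Pluripotency factor summits of WT cells were fewer at lost than at kept domains, with Oct4 at 18.5 and 22.9%, Sox2 at 10.5 and 16.01% and Nanog at 4.99 and 6.73%. Among domains of like signal (5 equal groups) summits remained fewer at lost domains. Sox2 differed most, by −5.24 points (−6.54 to −3.94), followed by Oct4, −4.96 (−6.55 to −3.36), then Nanog, −1.80 (−2.72 to −0.89). Among domains of like length no difference was resolved, although the estimates were slightly higher at lost domains. Oct4 was higher there by 1.65 points (−0.06 to 3.36), Sox2 by 0.66 (−0.66 to 1.99) and Nanog by 0.53 (−0.42 to 1.47). Each of these intervals held 0.

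Pluripotency genes lost domains at about the share of all genes. Of 28 listed genes marked in WT, 25 were kept and 3 lost (10.7%, 3.71 to 27.2), against 12% of all. The lost genes were Nr0b1 (Dax1, a nuclear receptor of the pluripotency network), Tex19.1 and Tcl1. The Nr0b1 domain was 6.5 kb long at rank 31.6, that of Tex19.1 11.7 kb at rank 12.02 and that of Tcl1 10.4 kb at rank 6.06. Kept domains of the core factors ranked lower in the KO list. Pou5f1, which encodes Oct4, stood at rank 84.6 in WT (57.2 kb) and 41.6 in KO (36.4 kb). Sox2, its partner, stood at 96.2 (35.1 kb) and 45.1 (13.0 kb). Klf4 stood at 56.9 (22.1 kb) and 13.7 (6.5 kb). These 3 domains were both shorter and lower in rank in KO. Nanog stood at 98.2 (22.1 kb) and 89.0 (32.5 kb), and Dppa5a at 20.02 and 62.0. The median difference in rank, KO minus WT, was −21.1 points for the 25 kept genes (17 lower) and −7.03 points over all 12431 kept promoters (65.3% lower). The ranks refer to lists of unequal length, and no error could be given for either median.

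Genes silenced by DNA methylation and expressed in germ cells were mostly unmarked in both genotypes. Of 37 genes 28 were marked in neither list, 3 of 7 marked in WT were lost and 2 of 30 were gained. The lost genes were Dazl, an RNA-binding protein of germ cells, with 1 bin at rank 81.7, Ddx4, the germ cell helicase also called Vasa, at rank 65.7, and Dpep3 at rank 68.4. The WT domains at the Ddx4 and Dpep3 windows were kept outside the window, and Dpep3 lies on chromosome 8. The gained genes were Smc1b, the meiotic cohesin subunit, with 1 bin at rank 84.2, and Hormad2, a meiotic chromosome protein, at rank 4.60, with another start marked in WT. Among 25 imprinted genes marked in WT 1 was lost, Peg12 (4%, 0.71 to 19.5). Of 20 DNA methylation and demethylation genes marked in WT 1 was lost, Mbd1, a methyl-CpG binding protein (5%, 0.89 to 23.6). The intervals of these 2 lists hold the 12% lost of all promoters. Dnmt3l, the cofactor of the de novo methyltransferases, was gained through a shared domain and had another start marked in WT.

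Neural regulators lost domains at a higher share than all genes. Of 34 proneural and neuroectoderm regulators marked in WT, 17 were lost (50%, 34.1 to 65.9), against 12% of all. Their median signal rank in WT was 16.5, against 63.1 for all kept promoters. Of all promoter domains, 49.1% were lost in the weakest of 10 equal groups of WT signal and 32.6% in the next. Whether the list differs from promoters of like signal was not tested. The 4 with the strongest domains were Pax6 (rank 47.7) and Pax3 (22.4), paired-box factors of the neural tube, Nkx6-2 (20.2) and Neurod2 (18.6). Pax6 had another start marked in KO. All 17 lost and 15 of 17 kept regulators had WT H3K27me3, so the list differs from all genes in that mark too. En1, a homeobox factor of the midbrain and hindbrain, was gained through a shared domain. Of 18 structural genes of neurons and glia marked in WT, 4 were lost (Slc17a7, Gad1, Nefh and Elavl3), while Nefm and Mbp were gained. Another start was marked in KO for Gad1 and in WT for Mbp. Nefm, a neurofilament gene, lies in the longest gained domain.

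The lists of other lineages held fewer marked genes. Of 24 mesoderm and cardiac regulators marked in WT, 8 were lost, led by Snai1, Nkx2-5, Wnt2 and Tcf21, and all 8 carried WT H3K27me3. Of 14 endoderm regulators, 3 were lost (21.4%), Sox7, Foxa2 and Foxa1, and Ptf1a, 1 of 6 unmarked in WT, was gained. Trophoblast genes lost Gata2 and Krt8 of 8 (25%) and gained Gcm1, 1 of 10 unmarked in WT. Contractile genes lost Myl7 and Des of 6 (33.3%), and hepatic genes Rbp4 and Fgb of 4 (50%). These shares stand beside 12% lost and 3.75% gained of all. With so few members these shares have wide intervals, for example 9.68 to 70.0% for contractile genes.

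Wnt ligands and Hox genes were lost in larger numbers. Of 18 Wnt ligands marked in WT, 10 were lost (55.6%, 33.7 to 75.4), with Wnt16, Wnt2, Wnt1 and Wnt3a the strongest. The median signal rank of the 18 in WT was 10.7, so they too were weak, and promoters of like signal were not compared. All 10 lost and all 8 kept Wnt genes had WT H3K27me3. Wnt3a was at rank 10.7 in WT and its window held no domain in any of the 6 EB lists. Of 31 Hox gene records marked in WT, 13 were lost. Hoxa3 has 2 records in the annotation, so these are 12 of 30 genes. The 13 records lie in 5 domains and are not independent. Of them, 7 lie in a WT domain that was kept outside the window, among them Hoxb1 and Hoxb9 in a domain of 156 kb. All 18 kept Hox genes ranked lower in KO, with a median difference of −5.42 points against −7.03 over all kept promoters. Their median rank in WT was 7.67, near the floor, and they share domains as well.

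The enzymes that write and remove H3K4me3 and the control genes kept their domains. None of 17 COMPASS and MLL subunits, 6 H3K4 demethylases, 11 PRC2 subunits, 61 histone genes or 63 ribosomal protein genes marked in WT was lost. For the ribosomal protein genes a count of 0 of 63 has an upper Wilson bound of 5.75%, and for the 17 COMPASS and MLL subunits of 18.4%.

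**Figure D4:**
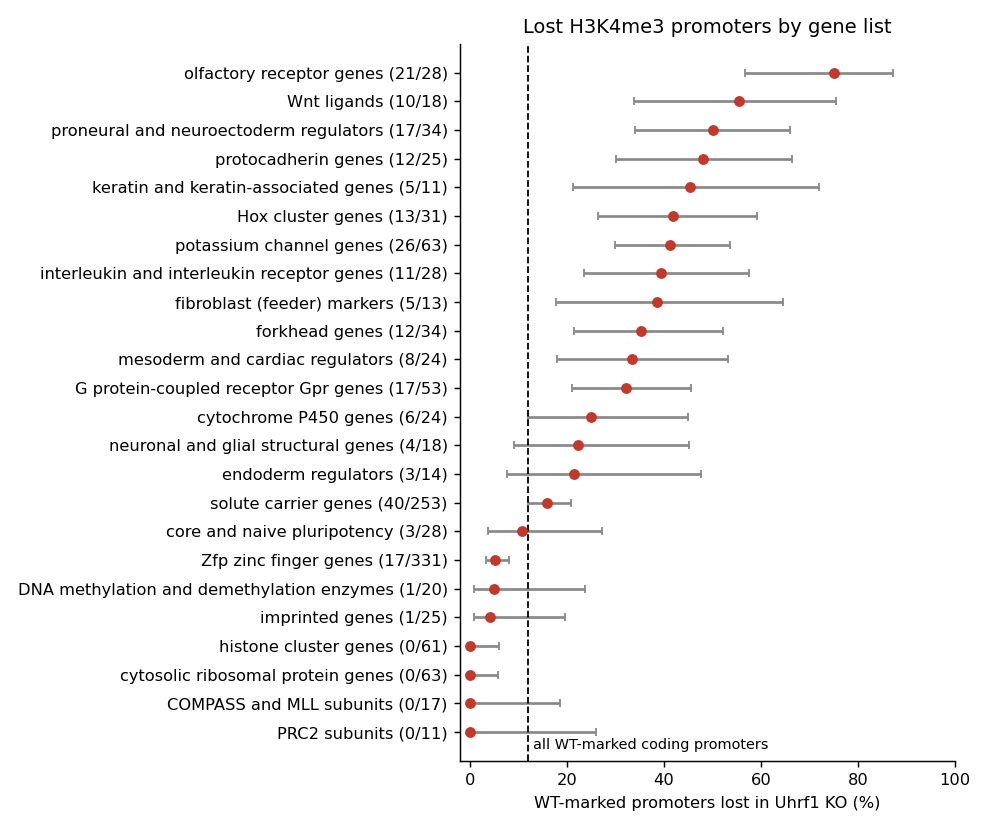
Percentage of WT-marked promoters lost in KO (x axis) for each gene list with at least 10 members marked in WT (y axis); points are shares, bars Wilson 95% intervals, and the dashed line is the share of all WT-marked coding promoters. Wnt ligands stand at 55.6% and ribosomal protein genes at 0.

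Olfactory and vomeronasal receptor genes were rarely marked in WT, and most of the marked ones were lost. Of 28 olfactory receptor genes marked in WT 21 were lost and of 6 vomeronasal receptor genes all 6. Near-identical families are uncertain, since the authors kept 1 alignment per read. Potassium channel genes lost 26 of 63 (41.3%), protocadherins 12 of 25 (48%) and forkhead genes 12 of 34 (35.3%), beside 12% of all. Their median signal ranks in WT were 29.1, 24.2 and 35.3, against 63.1 for all kept promoters, and promoters of like signal were not compared. The 12 lost protocadherins lie in 7 domains or loci and are not independent. Forkhead genes also gained 2 of the 9 unmarked in WT (22.2%, 6.32 to 54.7). Zfp genes lost 17 of 331 records (5.14%) and gained 8 of 43 (18.6%), beside 3.75% gained of all. Solute carriers lost 40 of 253 (15.8%, 11.8 to 20.8) and cytochrome P450 genes 6 of 24 (25%, 11.9994 to 44.9). Both intervals hold the 12% lost of all. Gpr receptors lost 17 of 53 (32.1%), interleukins and their receptors 11 of 28 (39.3%) and keratins 5 of 11 (45.5%). Of members unmarked in WT, solute carriers gained 8 of 117 (6.84%, 3.51 to 12.9) and Gpr receptors 1 of 54 (1.85%, 0.328 to 9.77). Interleukins and their receptors gained 4 of 57 (7.02%, 2.76 to 16.7) and keratins 2 of 89 (2.25%, 0.618 to 7.83). Each of these gained intervals holds the 3.75% of all. Of the 2 two-cell stage genes marked in WT, Tdpoz4 was lost. Among 237 families defined by symbol, 148 had a lost and 51 a gained promoter. The most lost promoters were in Slc (40 of 249 marked in WT), Fam (29 of 203), Tmem (22 of 179), Olfr (21 of 28), Gpr (16 of 47) and Zfp (16 of 328), an order that moves with family size. These shares are 16.1, 14.3, 12.3, 75, 34.0 and 4.88%, beside 12% of all. The most gained promoters were in Slc (8), Zfp (8), Usp (6) and Rpl (5), followed by 5 families with 3 each. Of members unmarked in WT, these are 7.55, 18.6, 66.7 and 13.5% for the first 4 families, beside 3.75% of all. For the 5 families with 3 each the shares ran from 0.276% (Olfr) to 30% (Klhl), so this order too moves with family size. The Rpl genes gained were annotated pseudogene symbols such as Rpl27-ps1.

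The 12 lost promoters with the strongest WT domains included enzymes and receptors. Fam13a (chr6:58882084-58974543) had a domain of 1 bin with a signal of 29.0. Zfp930 (chr8:71750242-71752879) followed with 26.3, Rnase12 with 26.0, Ogdhl with 26.0 and Dctd, dCMP deaminase, with 24.0. Car5a, a mitochondrial carbonic anhydrase, had 23.8 and Rps19-ps4 23.4. Tmem28 had 23.0, Tgtp2, an interferon-inducible GTPase, 22.7, Wdr17 22.0 and S1pr1, a sphingosine 1-phosphate receptor, 21.7. Another start of Dctd was marked in KO. At 6 of the 12 the whole domain was lost and at 6 the WT domain was kept outside the window. Of the 12, 4 had a domain of 1 bin, 4 lie on chromosome 8 and 7 had WT H3K27me3.

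The gained promoters with the strongest KO domains included signalling genes. Rprm (chr2:53936504-53937963), a cell cycle arrest gene induced by p53, had 1 bin with a signal of 24.9. Olfr368 had 22.2, Il6st, the gp130 subunit of the LIF receptor, 22.1, Il17f 22.1 and Tgfbr2, the type II TGF-beta receptor, 20.5. Cldn21 had 19.7, Nfyc 18.9, Cd300a 18.8, Mb, myoglobin, 18.4 and Zscan30 17.1. Lgi2 and Otop3 had 17.0 each. Another start of Nfyc was marked in WT. At 7 of the 12 the KO domain was gained and at 5, Il6st among them, a shared domain touched the window in KO only. Of the 12, 5 had a domain of 1 bin, none lies on chromosome 8 and 6 had no domain in any EB list.

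The longest lost domains were weak and were also marked in EBs. The longest spans 50.7 kb in the gene body of Sh3pxd2a (chr19:47385001-47435700, rank 5.25). The next is 48.1 kb at Gm5773 and Tdpoz4 (chr3:93558401-93606500, rank 0.406), and the next 46.8 kb at Zic4 and Zic1, zinc finger factors of the developing brain (chr9:91241801-91288600, rank 2.07). All 3 overlapped a domain in each of the 6 EB lists. The longest gained domains are 28.6 kb at Nefm (chr14:68731001-68759600, rank 4.39), 27.3 kb in Mtap7 (chr10:19916001-19943300) and 27.3 kb with no coding gene (chr5:113074001-113101300).

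The H3K4me3 lists of EBs at weeks 1, 2 and 3 did not enter the classes and served as another readout of the same mark. In WT EBs a domain overlapped 40.5, 55.2 and 58.2% of lost mESC domains at weeks 1, 2 and 3, against 89.7, 94.3 and 96.4% of kept ones. In KO EBs it overlapped 26.9, 56.7 and 64.3% of lost and 84.9, 97.0 and 98.0% of kept ones. The difference between lost and kept domains at week 1 was −49.1 points in WT EBs (−50.7 to −47.5) and −58.0 points in KO EBs (−59.4 to −56.4). Lost domains were shorter than kept ones. Within groups of like length the difference was −34.8 points in WT EBs (−36.9 to −32.6) and −40.9 in KO EBs (−42.9 to −38.8). Of lost domains 70.5% overlapped a domain in at least 1 KO EB list, and 23.5% overlapped none of the 6 lists, against 0.843% of kept domains.

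Gained domains were likewise found in EBs less often than shared ones. An EB domain overlapped 28.7, 54.3 and 48.7% of them in WT EBs and 29.2, 62.9 and 64.4% in KO EBs at weeks 1, 2 and 3, against 90.8, 94.8 and 96.7% and 86.1, 97.2 and 98.3% for shared domains. Within groups of like length the gained minus shared difference at week 1 was −51.6 points in WT EBs (−55.3 to −48.0) and −42.5 in KO EBs (−46.2 to −38.8). A domain in at least 1 KO EB list was found for 74.4% of gained domains. Lost promoter domains were present more often than lost distal ones at week 3, with 86.7% and 47.1% in WT EBs and 85.0% and 56.3% in KO EBs. The EB lists hold 18671 to 39897 domains, more than either mESC list.

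**Figure D5:**
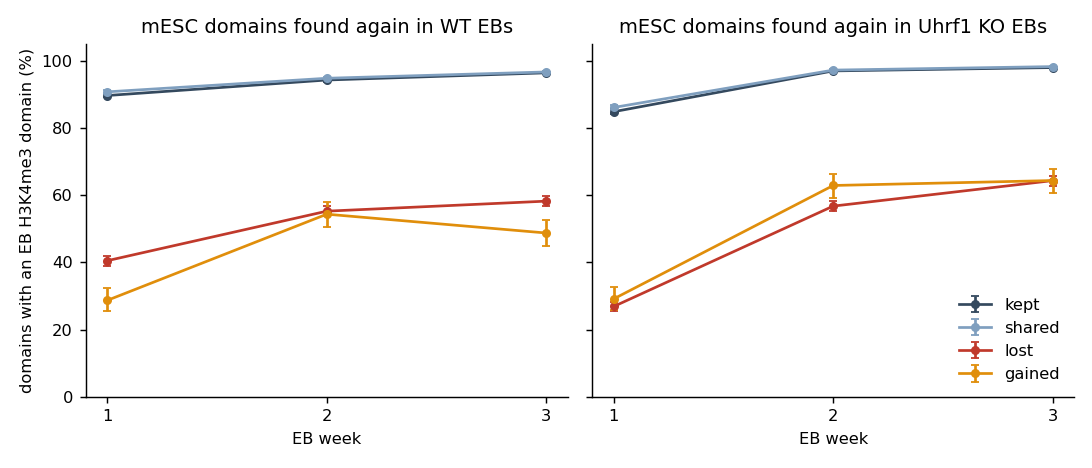
Percentage of kept, lost, shared and gained mESC domains that overlap an H3K4me3 domain of EBs (y axis) at weeks 1, 2 and 3 (x axis), in WT EBs and in KO EBs; bars are Wilson 95% intervals. Kept and shared domains lie at 84.9% or more, and lost and gained domains at 64.4% or less.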

How the data were processed

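ChIP-seq for H3K4me3 was done in WT and Uhrf1 KO mESC, 1 library each, with an antibody from Millipore. The authors mapped reads to mm9 with Bowtie2 2.1.0, keeping 1 alignment per read, and called domains per library with RSEG against input. The deposited signal of a domain is its mean read count per bin, and the deposited score grows with the number of bins. The score was not used for any result. Depth is not in the lists, so precision is given by the number of domains alone.

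Samples were grouped as GEO's labels give them. An overlap was any stretch of 1 bp or more. All domains lie on 1 grid of 1300 bp and none passes a chromosome end of NCBIM37. Coding gene starts came from GENCODE for NCBIM37, without 13 mitochondrial genes. Overlaps were computed with Python 3.11.15, numpy 2.4.6, pandas 2.3.3 and pysam 0.24.0, and plots with matplotlib 3.10.9. Overlap and interval functions were tested on simulated data.

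The members, the 31 gene lists and the rules were chosen with earlier results of these data known. Named were the 12 lost and 12 gained promoters of highest signal, without Gm, Rik and clone names, up to 4 lost and 4 gained genes per list, the 3 longest lost and gained domains, the families with most lost or gained promoters, and Uhrf1. Not all of these are printed, and some items are not reported here. The alternatives were other overlap rules, signal and length filters, lists of equal number, other promoter and CpG windows and groups of signal. Inputs and the H3K27me3 lists of EBs were not used here.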

Additional observations from a re-analysis of the deposited data

Results flagged for a closer look

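The balance of gained and lost H3K4me3 domains between WT and KO differed between mESC and EBs. In mESC 4127 domains were lost and 679 gained, a log2 ratio of gained to lost of −2.60. In week 1 EBs 4619 domains were lost and 3533 gained (−0.39). Week 2 EBs had 15815 lost and 7442 gained domains (−1.09), and week 3 EBs 5646 lost and 7125 gained (0.34). The result is listed because the ratio had the opposite sign at week 3, and the difference was not tested, since each stage has 1 library per genotype. List lengths moved with it: the KO list was shorter than the WT list in mESC (11509 and 15272) and at week 2 (32702 and 39897), and longer at week 1 (19040 and 18671) and week 3 (28789 and 27349).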

How the results depend on the processing

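The shares and differences over all domains and promoters, 23 results, were recomputed under the alternatives that apply to each, which gave 108 values, 27 of them from alternatives chosen after seeing the data. None of the 108 changed sign, 51 stayed within the interval of the reported value and 57 moved outside it. A plain share cannot change sign, and the length ratio of shared loci, reported as 0, could not be scored as changed. For these the lack of a reversal says nothing. The gene lists were not recomputed. No paired analysis was possible because each genotype has 1 library. Requiring 50% of a domain to be covered gave 34.8% lost and 13.8% gained, and log2 length ratios of −1.17 (lost over kept) and −0.19 (gained over shared). Keeping domains at or above the median signal in both lists gave 43.4% lost and 24.6% gained, 34.2 and 8.30% for promoters, distal minus promoter differences of 33.8 and 25.9 points, length ratios of −0.85 and −0.85, and a gained difference of CpG-poor minus CpG-rich promoters of −18.1 points. Filtering only the classified list, chosen after seeing the data, gave 13.8% lost and 3.72% gained, and 3.73 and 1.08% for promoters. The filter on both lists thus raised the shares by thinning the list compared against. Lists of equal number gave 19.3% lost and 20.3% gained, 6.90 and 16.2% for promoters, and length ratios of −2.17 and −0.58. The lost and gained promoter shares thus changed order, which the count of sign changes does not register. Domains of at least 2000 bp gave 24.8% lost. All transcript starts gave distal minus promoter differences of 41.4 and 18.2 points. Within 5 groups of signal the lost difference was 33.0 points and that of CpG-poor minus CpG-rich promoters 17.3 points. Without chromosome 8, chosen after seeing the data, 26.0% were lost and the lost difference was 38.1 points.

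For presence in EBs, the lost minus kept differences at weeks 1, 2 and 3 were as follows. With 50% coverage they were −33.1 and −37.0 points in WT EBs at weeks 1 and 2, and −23.7, −37.9 and −43.2 in KO EBs. With the median filter they were −37.1, −27.7 and −32.0 in WT EBs and −38.6, −32.3 and −30.5 in KO EBs. Within groups of signal they were −43.2, −35.5 and −35.6 in WT EBs and −49.4, −37.8 and −31.8 in KO EBs. The gained minus shared differences with 50% coverage were −41.7 and −36.0 points in WT EBs at weeks 1 and 2, and −25.7 and −48.3 in KO EBs at weeks 1 and 3. With the median filter they were −35.7, −24.2 and −29.2 in WT EBs and −33.4, −26.8 and −28.0 in KO EBs. The cause of the other shifts was not tested.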

Other observations

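Starts of noncoding genes and pseudogenes were scored by the same windows. Of marked starts in WT, 77 of 422 lincRNA genes were lost (18.2%, 14.9 to 22.2), 131 of 489 processed transcripts (26.8%, 23.1 to 30.9), 76 of 316 miRNA genes (24.1%, 19.7 to 29.1), 197 of 612 pseudogenes (32.2%, 28.6 to 35.99) and 34 of 251 snoRNA genes (13.5%, 9.86 to 18.3), against 12% of coding genes. The loss of chromosome 8 domains was also seen between WT and KO EBs, with 44.8, 55.7 and 39.5% of WT EB domains lost there at weeks 1, 2 and 3, against 23.3, 38.3 and 19.05% on the other chromosomes.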
